A study of Mus musculus with 35 samples.

Results

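The genes described here are 39 interferon-stimulated genes among the 22865 genes of a bulk RNA-seq count table. They were listed by symbol without a threshold on these values, but with earlier results of these data known. All 39 were in the table, 29 passed the filter on low counts (6174 genes did in all), and 10 were set aside. By role they were 4 transcription factors (Irf1, Irf7, Irf9 and Stat2), 5 sensors of RNA or DNA (Ddx58, Ifih1, Dhx58, Zbp1 and Eif2ak2), 3 IFIT proteins, 3 oligoadenylate synthetases, 8 GTPases (Mx1, Gbp2, Gbp3, Gbp7, Igtp, Irgm1, Iigp1 and Ifi47), the ubiquitin-like protein Isg15 with its protease Usp18, 4 enzymes of nucleic acids and nucleotides (Isg20, Rsad2, Cmpk2 and Samhd1), and 10 others. The study sequenced CD8 T cells of mouse liver and spleen under a normal diet (ND) or CD-HFD, a choline-deficient high-fat diet. All animals were C57BL/6 mice aged 13 months, and the labels name no other genotype or agent. Liver cells had been sorted as CXCR6pos or CXCR6neg, after a chemokine receptor typical of liver-resident T cells, and spleen cells as CX3CR1neg. The libraries used numbered 6, 4 and 5 under ND and 5, 6 and 6 under CD-HFD, for CXCR6pos, CXCR6neg and spleen cells in turn.

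Interferons are cytokines that switch on a large set of defence genes. Type I interferons signal through JAK1 and TYK2 to a transcription factor complex that holds STAT2 and IRF9 and binds the interferon-stimulated response element (ISRE), while genes induced by interferon-gamma often carry the gamma-activated sequence (GAS). In CD8 T cells these genes are known to follow exposure to interferon, and interferon-gamma is itself a product of activated CD8 T cells.

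Total counts ran from 15633 to 978896 per library, and 2 CXCR6pos libraries stood far below the others, replicate 1 of ND (15633) and replicate 5 of CD-HFD (57168). In the first of them 1 count was worth 49.2 CPM (counts scaled to library size), so a listed 0 allowed up to 148 CPM by counting error alone. All 16 T cell identity genes were detected in every group. They summed to 19736 to 20753 CPM in CD-HFD CXCR6pos libraries, above all other libraries (10192 to 18112 CPM). Cxcr6 itself ran from 201 to 867 CPM in the CXCR6pos libraries and from 40.0 to 450 CPM in the CXCR6neg ones. ND CXCR6pos replicate 6 (201 CPM) and ND CXCR6neg replicate 4 (450 CPM) went against their labels. Markers of plasmacytoid dendritic cells, which make type I interferon and express several of the 39 genes, differed with the groups: 20 markers summed to 1024 to 2424 CPM in CXCR6neg libraries, 556 to 897 in spleen and 246 to 362 in CXCR6pos, except 1894 in ND CXCR6pos replicate 6. B cell markers summed to 389 to 2260 CPM in liver and 3890 to 7566 CPM in spleen. Erythroid markers summed to 1731 to 10573 CPM in liver and 818 to 5091 CPM in spleen. The labels do not say that replicates are separate animals, so p-values measure only the spread between these libraries. In bulk RNA, fewer cells of a type and less RNA per cell cannot be told apart.

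ISRE or GAS letters stood near the starts of many, but not all, of the genes. RefSeq windows of 300 bases (250 before to 50 after an annotated start, build GRCm38.p6) were at hand for 31 of the 39, in 40 windows. The ISRE letters, GAAANN followed directly by GAAA on either strand, were in the windows of 18 of those 31 genes (58.1%), against 3.99% of 27025 genes in the same table. The GAS letters TTCNNNGAA, which read the same on both strands, were in those of 10 (32.3%), against 9.55%. Per window the shares were 47.5% against 3.44% for ISRE and 25.0% against 8.30% for GAS. Isg15 held 3 overlapping ISRE matches, and Ifit1, Ifit3, Gbp3, Irgm1, Oas1a and Ifitm3 held 2 each. Gbp7, Igtp, Eif2ak2, Oas1a and Ifitm3 held both kinds. A match is a description of letters, not a site shown to be bound. Irf7, Ifi47, Sp100 and Xaf1, which were also called in at least 1 test below, held neither kind. Ifi27l2a, Rtp4 and Usp18 had no window at hand and were not searched. The stretches below belong to members that held a match and whose levels differed between groups, and to Ifit3 as a second case of repeated ISRE letters. They are 5′ to 3′ on the gene's strand, all upstream of the start, with the matches in capitals, and they cover chr4:156200853-156200918 (minus strand, Isg15), chr7:78913329-78913381 (plus, Isg20), chr11:53769902-53769954 (plus, Irf1), chr11:58199489-58199553 (plus, Igtp), chr3:142530208-142530314 (plus, Gbp7), chr2:157135301-157135346 (minus, Samhd1) and chr19:34583351-34583438 (plus, Ifit3).
Isg15: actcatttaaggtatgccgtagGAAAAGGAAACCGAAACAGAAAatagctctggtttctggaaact
Ifit3: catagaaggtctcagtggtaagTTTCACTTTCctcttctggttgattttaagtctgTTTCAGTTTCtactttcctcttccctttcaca
Igtp: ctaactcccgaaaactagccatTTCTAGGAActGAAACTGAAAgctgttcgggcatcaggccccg
Gbp7: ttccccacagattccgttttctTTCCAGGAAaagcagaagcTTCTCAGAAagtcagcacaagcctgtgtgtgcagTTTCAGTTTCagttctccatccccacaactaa
Irf1: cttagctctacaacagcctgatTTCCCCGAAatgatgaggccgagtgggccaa
Isg20: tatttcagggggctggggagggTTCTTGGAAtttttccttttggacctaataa
Samhd1: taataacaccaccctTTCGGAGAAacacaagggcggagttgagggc

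**Figure D1:**
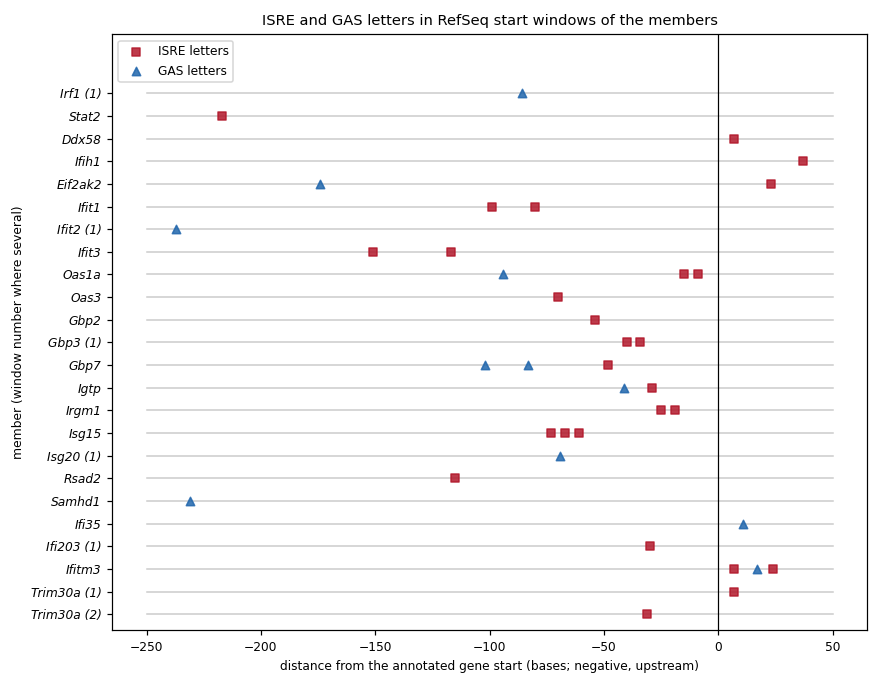
Each row is a RefSeq window of a member that held a match, the x axis is the distance in bases from the annotated start, red squares are ISRE letters and blue triangles are GAS letters. The 3 Isg15 squares lie side by side upstream of the start, while Igtp and Gbp7 carry both kinds.

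Most members were not called different between any pair of groups, and those called moved in both directions. The summed level of the 39 genes in CXCR6pos cells was 2870 ± 375 CPM (SD, n = 6) under ND and 3206 ± 258 (n = 5) under CD-HFD. CXCR6neg cells had 3243 ± 239 (n = 4) and 3578 ± 187 (n = 6), and spleen cells 2949 ± 115 (n = 5) and 3316 ± 187 (n = 6). The libraries of the 2 diets overlapped in both liver populations and in spleen. Within these sums Ifi27l2a alone had means of 123.5 CPM under ND and 422.9 under CD-HFD in CXCR6pos cells. Its means were 153.2 and 456.2 CPM in CXCR6neg cells and 126.9 and 324.1 CPM in spleen. CPM are on TMM-scaled library sizes, and since each transcript gives a tag at its 3′ end, they need no length correction to compare genes. By mean CPM over all libraries, Sp100 (507), Ifi47 (334), Ifi27l2a (275) and Samhd1 (245) were the most abundant, and the least abundant tested member was Ifit1 (19.98).

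Differences were called with edgeR's quasi-likelihood test at a Benjamini-Hochberg adjusted p under 0.05 over the 6174 genes. CXCR6pos against CXCR6neg cells under CD-HFD gave 6 of 29 members, 2 higher and 4 lower, where 11.1% of all genes were called (4.76% higher, 6.38% lower). The same comparison under ND gave 0 of 29, with 1 at an unadjusted p under 0.05 and 0 by DESeq2, where 0.0324% of all genes were called. CD-HFD against ND gave 6 of 29 in CXCR6pos cells, 4 higher and 2 lower (all genes, 11.3%; 4.84% higher, 6.45% lower). In CXCR6neg cells the diet comparison gave 1, higher (all genes, 0.47%; 0.292% higher). In spleen it gave 0, with 3 at an unadjusted p under 0.05 and 1 by DESeq2 (all genes, 0.0324%). The 6 calls were 20.7% of the members tested in each case. Without CD-HFD CXCR6pos replicate 1 the first count was 3. The diet count in CXCR6neg cells was 0 without ND replicate 4 and 2 without CD-HFD replicate 5, and that in spleen was 1 without CD-HFD replicate 1 or 2.

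CXCR6neg liver cells against spleen gave 2 of 29 under CD-HFD (all genes, 10.4%; 5.73% higher, 4.71% lower) and 1 under ND (6.87%; 4.73% higher, 2.14% lower), all higher in liver. These counts were 4 without CD-HFD CXCR6neg replicate 6 and 2 without ND spleen replicate 5. CXCR6pos liver cells against spleen, a comparison added after seeing the data, gave 6 under CD-HFD, 3 in each direction, or 20.7% of those tested (all genes, 25.7%; 12.5% higher, 13.3% lower), and 2 under ND, both higher (14.4%; 7.43% higher, 6.98% lower). A test of any difference among the 6 groups called 13 of 29 members (44.8%) and 28.9% of all genes. Without CD-HFD CXCR6pos replicate 4 this last count was 8. Several comparisons share groups, so their calls are not independent of one another. The median log2 fold change over the 29 members stayed near 0 in each pairwise comparison, from -0.16 (CXCR6pos against spleen, CD-HFD) to 0.14 (CXCR6neg against spleen, ND), while the medians over all genes lay between -0.016 and -0.00052.

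**Figure D2:**
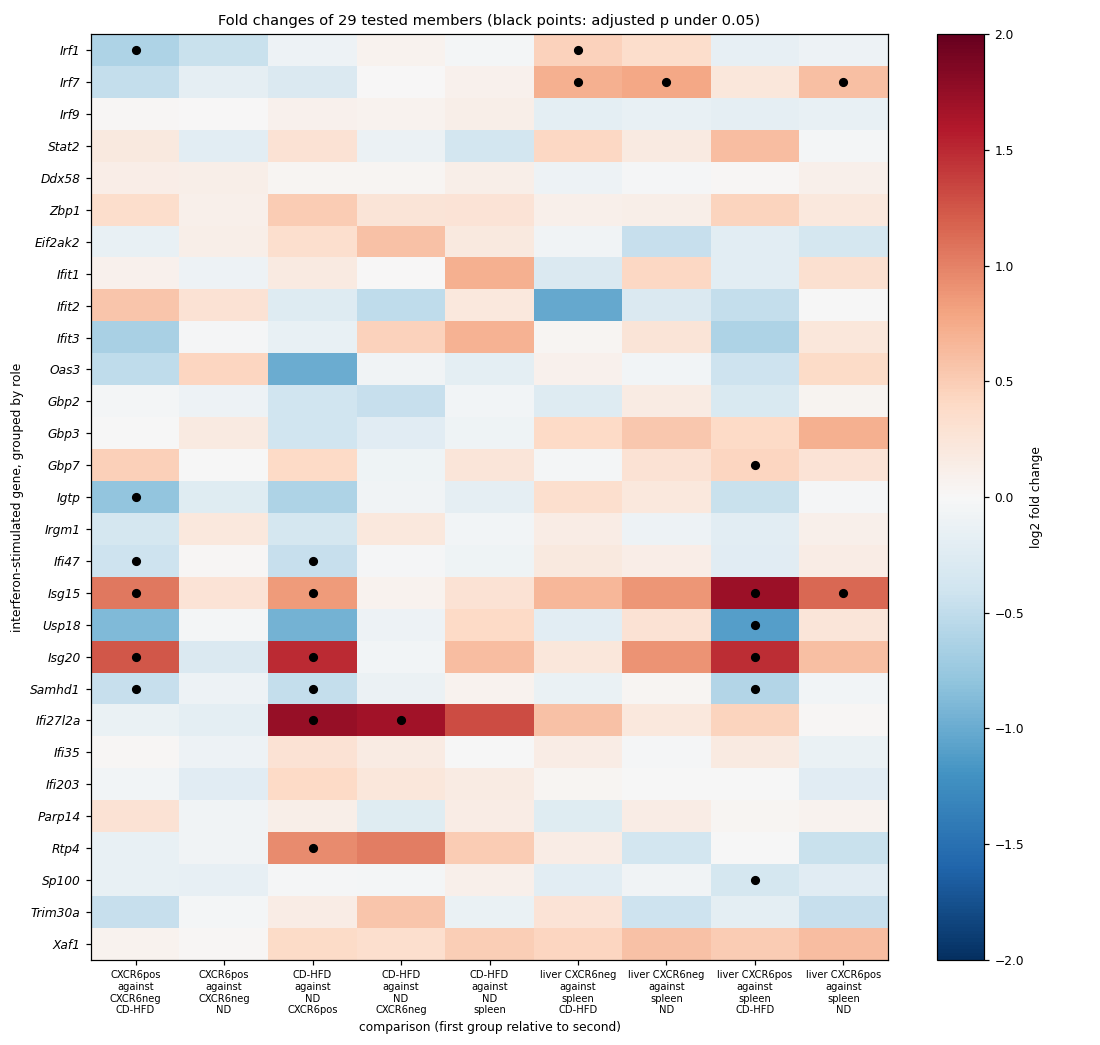
Colour gives the log2 fold change of each of the 29 tested members (rows) in the 9 pairwise comparisons (columns), and black points mark an adjusted p under 0.05. Ifi27l2a and Rtp4 are red in all 3 diet columns, Isg15 and Isg20 are red wherever CD-HFD CXCR6pos cells are compared, and most other cells are pale.

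Ifi27l2a, which encodes a small hydrophobic protein of the IFI27 family (chr12:103442167-103443680, minus strand), had the largest diet difference and the only one called in both liver populations. In ND CXCR6pos libraries its level ran from 66.9 through a median of 124 to 167 CPM, and in CD-HFD CXCR6pos libraries it was 319, 402, 510.4, 441 and 442 CPM. The ND CXCR6neg libraries held 200.1, 189.7, 98.9 and 124 CPM, and the CD-HFD CXCR6neg ones 364 to 625.2 with a median of 411. In both populations every CD-HFD library lay above every ND library. The log2 fold change was 1.74 ± 0.30 (SE), 3.34-fold, with an adjusted p of 0.00014 in CXCR6pos cells, and 1.69 ± 0.32, 3.22-fold, with an adjusted p of 0.0057 in CXCR6neg cells. Without ND CXCR6neg replicate 4, the library high in Cxcr6, the CXCR6neg difference was 1.48 with an adjusted p of 0.074.

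In spleen the Ifi27l2a difference was of like sign but not called. ND spleen libraries held 81.2, 126, 161, 121 and 144 CPM, and CD-HFD spleen libraries ran from 159 through a median of 365 to 448 CPM. CD-HFD replicates 1 and 2 (159 and 181 CPM) sat beside the ND range, and replicates 3 to 6 (342 to 448 CPM) well above it. On the log2 scale the difference was 1.31 ± 0.27 with an adjusted p of 0.11. It passed with DESeq2 (adjusted p 0.0032), with no filter (0.045), and without CD-HFD replicate 1 (1.48, adjusted p 0.012) or replicate 2 (1.46, 0.017). In those same 2 libraries the plasmacytoid dendritic cell markers summed to 563 and 566 CPM, against 823 to 897 in the other 4, and their part in the result was not tested. The interaction tests called no difference in diet effect, either between CXCR6pos and CXCR6neg cells (0.05 ± 0.44, adjusted p 0.995) or between CXCR6neg cells and spleen (0.37 ± 0.43, adjusted p 0.986).

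Rtp4, a transmembrane chaperone of receptors that also binds nucleic acids (chr16:23520291-23614222, plus strand, overlapping Masp1 on the other strand), was higher with CD-HFD in CXCR6pos cells. Its levels were 0 to 53.9 CPM with a median of 29.2 in ND CXCR6pos libraries, and 70.9, 101, 56.0, 69.2 and 17.7 in CD-HFD ones. All CD-HFD libraries except the shallow replicate 5 lay above the ND libraries. The log2 fold change was 0.95 ± 0.28 with an adjusted p of 0.015, and the call was lost without ND CXCR6pos replicate 6 (0.84, adjusted p 0.055) or CD-HFD CXCR6pos replicate 2 (0.72, 0.16). In CXCR6neg cells the difference was 1.02 ± 0.29 with an adjusted p of 0.087, and it was called without CD-HFD CXCR6neg replicate 5 (1.10, 0.046). Spleen libraries held 68.1, 68.3, 21.5, 39.9 and 50.2 CPM under ND and 56.2 to 91.0 under CD-HFD, a difference of 0.51 ± 0.21 (adjusted p 0.99).

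Isg15, the ubiquitin-like protein that is attached to other proteins after interferon exposure (chr4:156199424-156200818, minus strand), was highest in CD-HFD CXCR6pos cells. There it stood at 118, 105, 106, 107 and 70.7 CPM, the last in the shallow replicate 5. ND CXCR6pos libraries ran from 0 to 83.5 CPM with a median of 50.5. ND CXCR6neg libraries held 33.4, 58.7, 44.5 and 53.1 CPM, and CD-HFD CXCR6neg libraries 38.4 to 74.9 with a median of 49.5. All CD-HFD CXCR6pos libraries but replicate 5 lay above every other liver library. Spleen was lowest, at 26.2, 20.5, 28.7, 26.1 and 37.6 CPM under ND and 24.3 to 37.4 CPM under CD-HFD.

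Isg15 was thereby 2.07-fold higher in CXCR6pos than in CXCR6neg cells under CD-HFD, a log2 fold change of 1.05 ± 0.25 with an adjusted p of 0.00096 that stayed called when any 1 library was left out. It rose with CD-HFD in CXCR6pos cells by 0.86 ± 0.23 (adjusted p 0.0050). In CXCR6neg cells the diet difference was 0.07 ± 0.29 (adjusted p 0.99) and in spleen 0.29 ± 0.26 (0.9996). The interaction between diet and CXCR6 was 0.78 ± 0.37 with an adjusted p of 0.38, so a larger diet effect in CXCR6pos cells was not shown. Against spleen, CXCR6pos cells were higher by 1.72 ± 0.23 under CD-HFD (adjusted p 5.7e-10, with no overlap of the libraries) and by 1.15 ± 0.26 under ND (0.00053). CXCR6neg cells exceeded spleen by 0.67 ± 0.25 under CD-HFD and 0.88 ± 0.30 under ND, with adjusted p of 0.072 and 0.059. Those became calls without CD-HFD CXCR6neg replicate 6 (0.79, adjusted p 0.046) and without ND spleen replicate 5 (0.94, 0.045).

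Usp18, the protease that removes Isg15 from proteins and dampens type I interferon receptor signalling (chr6:121245906-121270917, plus strand), had no call in the direction of Isg15. Its levels were low, at 11.8, 20.2, 24.9, 8.66 and 17.7 CPM in CD-HFD CXCR6pos libraries and 21.97 to 53.4 CPM with a median of 34.8 in CD-HFD spleen. The only call was CXCR6pos below spleen under CD-HFD, with a log2 fold change of -1.09 ± 0.39 and an adjusted p of 0.029. It was lost with DESeq2 (0.067) and without CD-HFD CXCR6pos replicate 1 or 4 or CD-HFD spleen replicate 1 or 2 (adjusted p 0.056 to 0.18). The diet difference in CXCR6pos cells was -0.95 ± 0.43, with an adjusted p of 0.16.

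Isg20, a 3′ to 5′ exonuclease that degrades single-stranded RNA (chr7:78913424-78920396, plus strand), had the second largest fold increase with CD-HFD in CXCR6pos cells. The CD-HFD CXCR6pos libraries held 29.5, 70.9, 137, 49.0 and 106 CPM, a spread wider than that of Isg15. ND CXCR6pos libraries ran from 0 to 36.7 CPM with a median of 21.5. CXCR6neg libraries held 20.01, 27.1, 42.0 and 24.8 CPM under ND and 8.51 to 52.9 under CD-HFD, and the CD-HFD CXCR6pos libraries overlapped both. The diet difference in CXCR6pos cells was 1.49 ± 0.33, 2.81-fold, with an adjusted p of 0.00040, and stayed called when any 1 library was left out. The difference from CXCR6neg cells under CD-HFD was 1.24 ± 0.33 (adjusted p 0.0052), and 0.93 (0.088) without CD-HFD CXCR6pos replicate 3, the highest of the group. Against spleen under CD-HFD it was 1.47 ± 0.30 (adjusted p 3.0e-05). The diet by CXCR6 interaction was 1.54 ± 0.52 with an adjusted p of 0.13. In spleen all 6 CD-HFD libraries (20.4 to 33.0 CPM) lay above the 5 ND libraries (6.27 to 19.95 CPM), a difference of 0.62 ± 0.34 that was not called (adjusted p 0.9996). The gap between these ranges was smaller than the worth of 1 count in any spleen library (1.076 CPM or more).

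Samhd1, the phosphohydrolase that depletes deoxynucleotides in resting cells (chr2:157097533-157135265, minus strand), was lower in CD-HFD CXCR6pos cells than in spleen. Its levels there were 165, 172, 218, 182 and 159 CPM, against 255 to 296 CPM with a median of 273 in CD-HFD spleen, with no overlap. This was a log2 fold change of -0.59 ± 0.14 with an adjusted p of 0.00058. Samhd1 was also below CXCR6neg cells under CD-HFD (-0.46 ± 0.16, adjusted p 0.038) and below ND CXCR6pos cells (-0.48 ± 0.15, 0.025), where groups overlapped. Both of these calls were fragile. The first was lost with no filter, with DESeq2 and without CD-HFD CXCR6pos replicate 1, 2, 4 or 5 or CD-HFD CXCR6neg replicate 3 or 6 (adjusted p 0.053 to 0.16). The second was lost with DESeq2 (0.063), with a fit of the 2 groups alone (0.053) and without ND replicate 2, 3 or 5 or CD-HFD replicate 1, 2 or 4 (adjusted p 0.062 to 0.089).

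Among the transcription factors, Irf1, a target and mediator of interferon-gamma signalling (chr11:53770014-53778374, plus strand), was lower in CXCR6pos than in CXCR6neg cells. Its levels under CD-HFD were 136, 213, 230.3, 182 and 124 CPM in CXCR6pos libraries and 233 to 317 CPM with a median of 295 in CXCR6neg libraries. Under ND they were 148 to 237 CPM with a median of 190.3 in CXCR6pos libraries and 293, 312, 257 and 237 in CXCR6neg libraries. The 2 populations did not overlap under either diet, but the gaps were smaller than the worth of 1 count. The nearest libraries were at 230.31 and 233.36 CPM under CD-HFD and at 236.75 and 237.33 CPM under ND. There 1 count was worth 6.225 CPM in CD-HFD CXCR6pos replicate 3 and 3.542 CPM in ND CXCR6neg replicate 5. The log2 fold change of CXCR6pos against CXCR6neg cells was -0.62 ± 0.14 under CD-HFD (adjusted p 0.00099, called when any 1 library was left out). Under ND it was -0.45 ± 0.14 (adjusted p 0.25). Irf1 was also higher in CD-HFD CXCR6neg cells than in spleen (185 to 223 CPM), by 0.46 ± 0.12 with an adjusted p of 0.0037, a call lost with no filter (0.074). The ND difference, 0.35 ± 0.14, had an adjusted p of 0.13, again with no overlap of the libraries. Plasmacytoid dendritic cell markers also differed in these 4 contrasts. Of 16 tested, 15 were called lower in CXCR6pos than CXCR6neg cells under CD-HFD (all genes, 6.38%), but only 1 under ND (0.0324%). In CXCR6neg cells against spleen, 12 were called higher under CD-HFD (all genes, 5.73%) and 10 under ND (4.73%). Their part in the Irf1 result was not tested.

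Irf7, the factor that amplifies type I interferon production and is abundant in plasmacytoid dendritic cells (chr7:141262706-141266481, minus strand, overlapping Phrf1 on the other strand), was higher in liver than in spleen. CXCR6neg libraries held 193, 217, 163 and 188 CPM under ND and 132 to 233 with a median of 174 under CD-HFD. Spleen libraries held 81.2, 118, 133, 101 and 125 CPM under ND and 87.4 to 134 with a median of 103 under CD-HFD. The ND groups did not overlap, and 1 CD-HFD CXCR6neg library fell within the spleen range. The log2 fold change was 0.78 ± 0.17 under ND (adjusted p 0.00075) and 0.71 ± 0.15 under CD-HFD (0.00019), both called when any 1 library was left out. The marker sum was higher in every CXCR6neg library (1024 to 2424 CPM) than in any spleen library (556 to 897 CPM).

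ND CXCR6pos cells exceeded spleen in Irf7 too, at 114 to 246 CPM with a median of 183, by 0.59 ± 0.16 with an adjusted p of 0.0046. In 5 of those 6 libraries the plasmacytoid dendritic cell markers summed to 246 to 362 CPM, below every spleen library, and Siglech, a defining marker, was at 0 to 6.68 CPM; the sixth, replicate 6, had 1894 and 133 CPM. The part of these cells in the Irf7 difference was not tested. Leaving out the 2 shallow libraries and ND CXCR6pos replicate 6 together, an alternative added after seeing the data, gave 0.46 with an adjusted p of 0.057. In CD-HFD CXCR6pos cells (118, 152, 112, 147 and 124 CPM) the difference from spleen was 0.23 ± 0.17 (adjusted p 0.36). Against CXCR6neg cells it was -0.48 ± 0.18 (adjusted p 0.064), and -0.57 (0.025) without CD-HFD CXCR6neg replicate 1. Irf9 and Stat2, both part of the type I interferon complex, were called in no comparison. Their group means ran from 58.1 to 86.2 CPM and from 19.1 to 33.2 CPM.

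**Figure D3:**
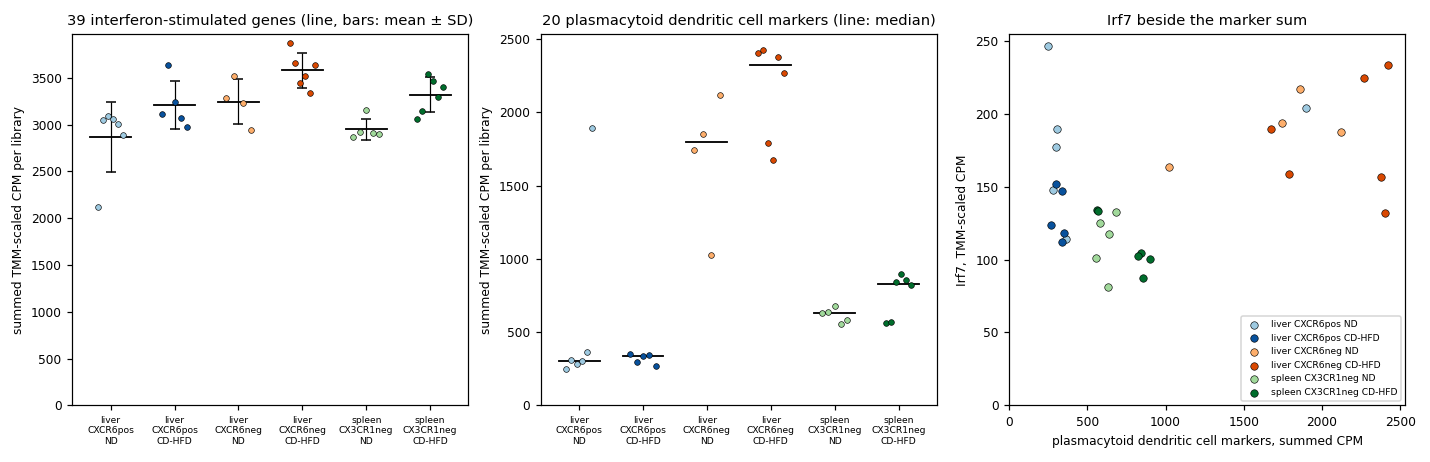
Summed CPM per library of the 39 interferon-stimulated genes (left) and of the 20 plasmacytoid dendritic cell markers (middle) by group, and Irf7 against that marker sum (right), 1 point per library. The lowest interferon-stimulated gene sum is that of the shallow ND CXCR6pos replicate 1. CD-HFD CXCR6neg sums (3342 to 3874 CPM) lie above all ND CXCR6pos (up to 3096) and ND spleen sums (up to 3152). The marker sums separate CXCR6neg libraries, and ND CXCR6pos replicate 6, from the rest.

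Of the 6 tested GTPases, a group that acts on vacuoles and membranes of infected cells, Igtp and Ifi47 were called lower in CD-HFD CXCR6pos cells and Gbp7 higher. Igtp, or IRGM3 (chr11:58199556-58207591, plus strand, overlapping Irgm2 on the same strand), stood at 41.3, 87.8, 80.9, 54.8 and 70.7 CPM in CD-HFD CXCR6pos libraries. In CD-HFD CXCR6neg libraries it ran from 82.8 to 157 CPM with a median of 121, and 1 CXCR6pos library reached that range. The log2 fold change was -0.78 ± 0.23 with an adjusted p of 0.012, and the call was lost without CD-HFD CXCR6pos replicate 1 (-0.67, adjusted p 0.056) or replicate 4 (-0.67, 0.081). Igtp against ND CXCR6pos libraries (53.3 to 130.3 CPM, median 103) differed by -0.61 ± 0.23 with an adjusted p of 0.064. It was called there without ND replicate 2 (0.026) or CD-HFD replicate 2 (0.036).

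Ifi47, or IRGD (chr11:49076587-49096974, plus strand, overlapping Olfr56 on the same strand), was lower in CD-HFD CXCR6pos cells against both of their liver counterparts. Its levels were 195, 267, 255, 309 and 336 CPM there, 292 to 401 with a median of 388 in ND CXCR6pos libraries and 326 to 399.8 with a median of 356 in CD-HFD CXCR6neg libraries. The groups overlapped by 1 or 2 libraries. The diet difference was -0.46 ± 0.13 with an adjusted p of 0.0084, and -0.37 (0.071) without CD-HFD replicate 1. The difference from CXCR6neg cells was -0.42 ± 0.13 with an adjusted p of 0.023, lost with no filter (0.087) and without CD-HFD CXCR6pos replicate 1, 2 or 3 or CXCR6neg replicate 1 (adjusted p 0.053 to 0.13). In spleen Ifi47 was 301 to 369.9 CPM under ND and 276 to 348 under CD-HFD.

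Gbp7, a guanylate-binding protein (chr3:142530342-142550149, plus strand), was instead highest in CD-HFD CXCR6pos cells, at 195, 192, 137, 156 and 159 CPM. CD-HFD spleen libraries ran from 108 to 146 with a median of 126, overlapping 1 of these 5. The difference from spleen was 0.43 ± 0.16 with an adjusted p of 0.034. It was lost with no filter (0.24), with DESeq2 (0.052) and without CD-HFD CXCR6pos replicate 1 or 2 or CD-HFD spleen replicate 1, 2 or 6 (adjusted p 0.053 to 0.13). Against CXCR6neg cells under CD-HFD the difference was 0.47 ± 0.18 with an adjusted p of 0.074, and 0.55 (0.043) without CXCR6neg replicate 3. The other tested GTPases, Gbp2, Gbp3 and Irgm1, had group means of 67.9 to 105, 28.4 to 49.5 and 59.6 to 73.4 CPM and no call. Guanylate-binding protein genes lie in a cluster of similar sequence, so reads may be split among them.

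Sp100, the scaffold of PML nuclear bodies and the most abundant member (chr1:85649988-85709998, plus strand), was lower in CD-HFD CXCR6pos cells than in spleen. It stood at 514, 577, 373, 409.7 and 389 CPM there and at 581 to 620.0 CPM with a median of 587 in CD-HFD spleen, with no overlap. The nearest libraries were at 577.17 and 580.54 CPM, and 1 count was worth 3.375 CPM in CD-HFD CXCR6pos replicate 2. The difference from spleen on the log2 scale was -0.35 ± 0.11 with an adjusted p of 0.013, and the call was lost without CD-HFD CXCR6pos replicate 3 (-0.29, 0.074) or replicate 4 (-0.30, 0.074). CD-HFD CXCR6neg libraries, at 419 to 582 CPM, overlapped both, but 5 of these 6 also lay below every CD-HFD spleen library. ND CXCR6pos libraries ran from 148 CPM, in the shallow replicate 1, through a median of 457 to 559 CPM. Their mean, 423 CPM, was the lowest of the 6 groups. ND CXCR6neg libraries ran from 510 to 560 CPM and ND spleen libraries from 464 to 618 CPM.

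Ifit3 and Xaf1 were called only by the test across all 6 groups. Ifit3, an RNA-binding protein of the IFIT complex (chr19:34583531-34588731, plus strand; its neighbour Ifit3b is near-identical), had an adjusted p of 0.038 there, lost with DESeq2 (0.11) and with the identical library kept in spleen (0.15). The Ifit3 call also ended with that library kept in liver or in both groups, and without the 2 libraries against their Cxcr6 label. Leaving out the shallow libraries together with ND CXCR6pos replicate 6 ended it as well. It was lost too without CD-HFD CXCR6pos replicate 3 or 4, CD-HFD CXCR6neg replicate 2, 3 or 5, ND spleen replicate 1, 2 or 4 or CD-HFD spleen replicate 1, 2 or 3 (adjusted p 0.052 to 0.099). Its levels were 59.1, 81.0, 12.4, 17.3 and 35.4 CPM in CD-HFD CXCR6pos libraries, 42.5 to 96.5 with a median of 70.7 in CD-HFD CXCR6neg ones, and 48.6 to 78.1 with a median of 61.6 in CD-HFD spleen. Without CD-HFD CXCR6pos replicate 2, the highest of its group, Ifit3 was called lower than in CXCR6neg cells (-1.26, adjusted p 0.0087) and than in spleen (-1.22, 0.0025), against -0.65 (0.17) and -0.61 (0.084) with it. Xaf1, a partner of an inhibitor of apoptosis (chr11:72301629-72313733, plus strand), had group means from 29.4 CPM in ND spleen to 66.1 CPM in CD-HFD CXCR6pos cells and an adjusted p of 0.036, lost with no filter (0.11), with DESeq2 (0.056) and without CD-HFD CXCR6pos replicate 2 or 3, CD-HFD CXCR6neg replicate 6 or ND spleen replicate 1, 2, 4 or 5 (0.054 to 0.095). The Xaf1 call also ended with the identical library kept in spleen or in both groups. The largest pairwise difference of Xaf1 was 0.62 ± 0.28 between ND CXCR6pos cells and ND spleen (adjusted p 0.14), and it was called without ND CXCR6pos replicate 3 (0.79, 0.049).

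**Figure D4:**
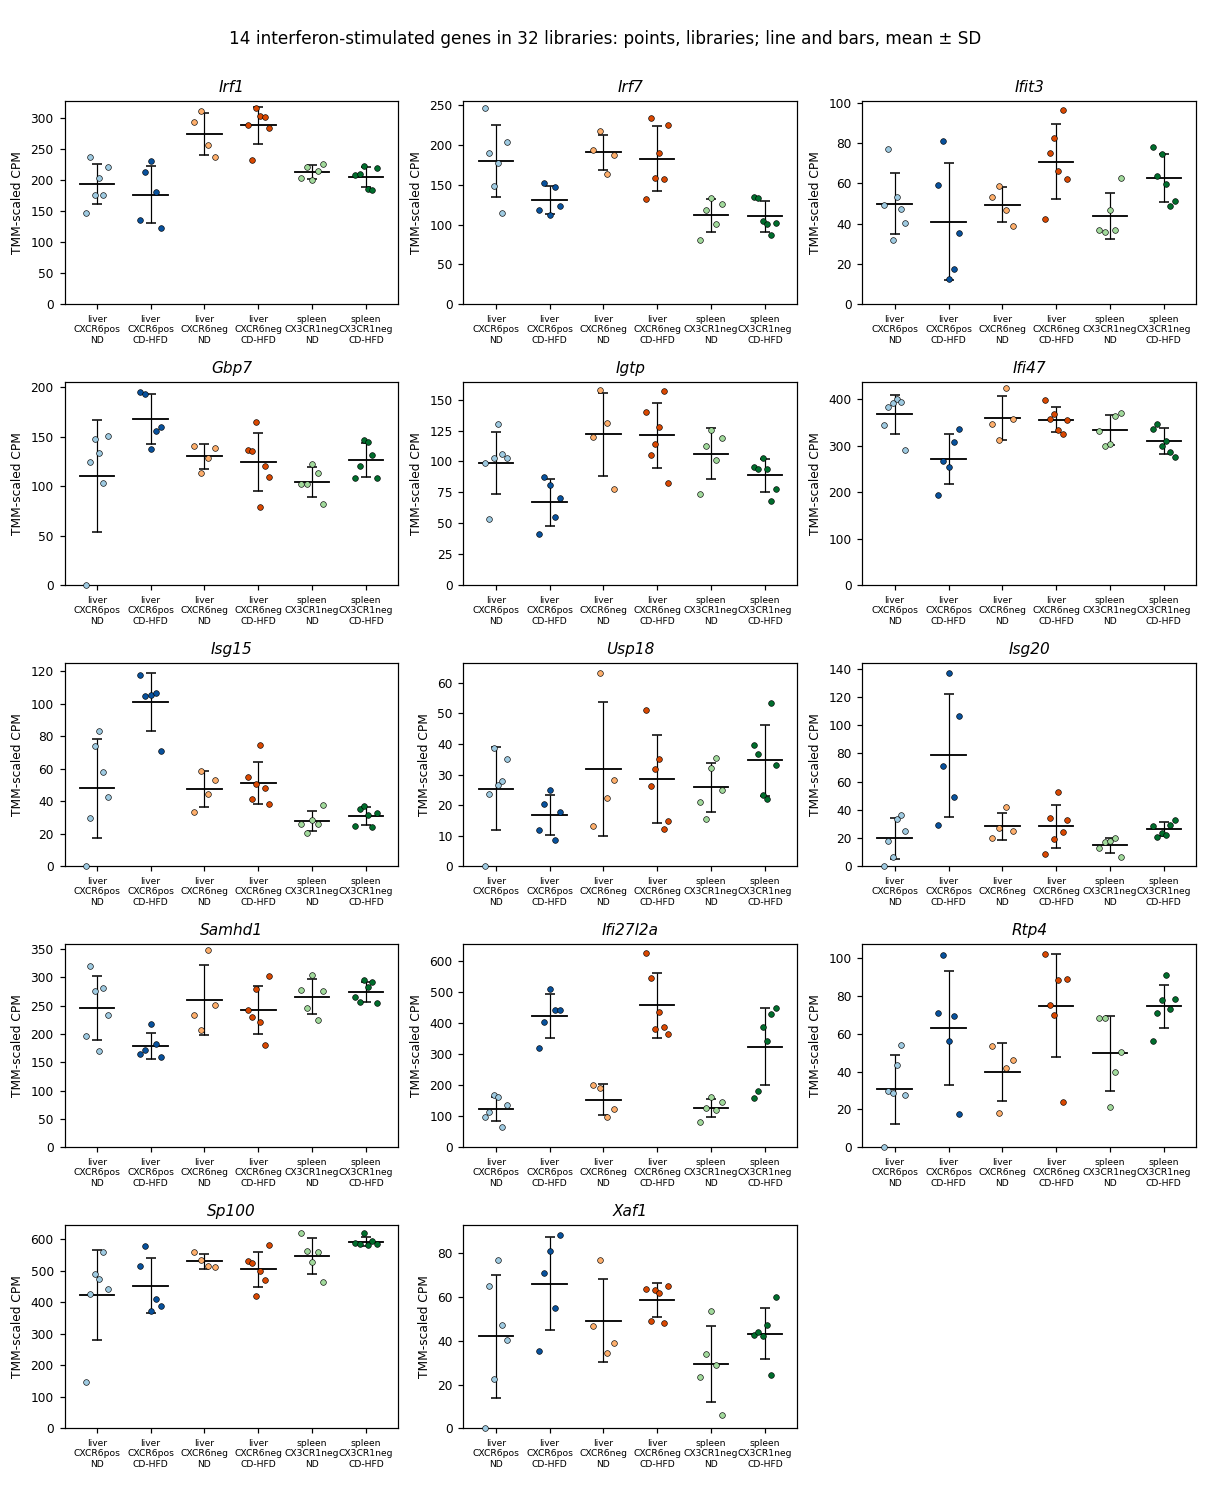
TMM-scaled CPM of the 14 members called in at least 1 test, 1 point per library in 6 groups, with the group mean and SD, each axis starting at 0. Ifi27l2a shows CD-HFD libraries above ND libraries in all 3 populations except 2 spleen libraries near the ND range, and Isg15 and Isg20 show CD-HFD CXCR6pos libraries highest.

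The 15 tested members without any call covered every role except the Isg15 pair and the nucleic acid enzymes. The sensors Ddx58 (RIG-I), Zbp1 and Eif2ak2 (PKR) had group means of 45.5 to 66.2, 72.5 to 112 and 19.5 to 30.8 CPM. The lowest adjusted p of a sensor was that of Zbp1, with a log2 fold change of 0.45 ± 0.20 for CXCR6pos cells over spleen under CD-HFD (adjusted p 0.097). Ifit2, which binds viral RNA with its IFIT partners, was at 4.25 to 23.6 CPM in CD-HFD CXCR6neg libraries and 12.3 to 42.1 CPM in CD-HFD spleen, a difference of -1.02 ± 0.39 (adjusted p 0.079). Oas3, the only tested synthetase of 2-5A, which activates RNase L, had group means of 13.0 to 27.5 CPM. Ifi35, Ifi203, Parp14 and Trim30a, of the mixed group, had group means of 138 to 181, 65.1 to 102, 32.7 to 40.6 and 42.4 to 59.9 CPM.

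The 10 members set aside had 13 (Ifi44) to 194 (Ifih1) counts summed over the 32 libraries and mean levels of 1.22 to 19.4 CPM. They were Ifih1 (MDA5), Dhx58 (LGP2), Oas1a, Oasl2, Mx1, Iigp1, Rsad2 (viperin), Cmpk2, Ifi44 and Ifitm3, among them several genes widely used to read out type I interferon exposure. Ifitm3, which blocks virus entry at endosomes, was singled out after its values were seen. It had 0 counts in all 5 CD-HFD CXCR6pos libraries, 14 in the 6 CD-HFD CXCR6neg libraries and 52 in the 6 CD-HFD spleen libraries. With its level set at a floor of 3 counts over the group, it was 3.68-fold below CXCR6neg cells and 5.65-fold below spleen. These ratios take the counts of the other groups as exact. Bounds that allow for counting error in both groups would be lower. Against ND CXCR6pos cells, with 8 counts in 6 libraries, the ratio was 1.65, and a decrease was not shown. With no filter Ifitm3 was called lower than in CXCR6neg cells and than in spleen under CD-HFD. Those calls come from the same values for which it was singled out, so they are no separate support.

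Neither interaction called a member. The diet by CXCR6 interaction gave 0 of 29, with 3 at an unadjusted p under 0.05, where 1.44% of all genes were called. The diet by organ interaction (CXCR6neg cells and spleen) gave 0 of 29, with 0 at an unadjusted p under 0.05, and 0% of all genes. Isg20 had the largest interaction value among the members (1.54 ± 0.52), as given above.

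Upstream of the members, Ifng, the type II interferon, was the only 1 of 20 interferon ligand genes matched in the table, and it was far higher in liver than in spleen. It was at 49.2 to 474 CPM with a median of 291 in ND CXCR6pos libraries, 138 to 248 with a median of 212 in CD-HFD CXCR6pos, 107 to 255 with a median of 202 in ND CXCR6neg and 84.5 to 132 with a median of 105 in CD-HFD CXCR6neg. In spleen it was at 3.59 to 25.1 CPM under ND and 6.46 to 30.04 under CD-HFD, below every liver library. The lowest liver value, 49.2 CPM, was the worth of 1 count in the shallow ND CXCR6pos replicate 1. The log2 fold change of CXCR6pos cells over spleen was 4.67 ± 0.29 under ND (adjusted p 2.9e-16) and 3.79 ± 0.29 under CD-HFD (1.5e-13). Ifng was lower with CD-HFD in CXCR6pos cells (-0.70 ± 0.20, adjusted p 0.016). In CXCR6neg cells it differed by -0.95 ± 0.25, which was not called (adjusted p 0.075), and the diet by CXCR6 interaction was 0.24 ± 0.32 (adjusted p 0.88). Irf1, a known target of its signalling, differed by -0.10 ± 0.15 (adjusted p 0.81) with CD-HFD in CXCR6pos cells. A link between the levels of Ifng and Irf1 was not tested.

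Of 17 tested receptor and signalling genes, 4 were lower and 0 higher in CXCR6pos than CXCR6neg cells under CD-HFD (all genes, 6.38% lower and 4.76% higher), and 2 were higher and 1 lower with CD-HFD in CXCR6pos cells (all genes, 4.84% higher and 6.45% lower). Irf8, among the 4 lower genes (-1.94 ± 0.48, adjusted p 0.0067), is also one of the plasmacytoid dendritic cell markers. Ifngr1, the ligand-binding chain of the interferon-gamma receptor, had group means of 361 ± 47.6 CPM (SD, n = 5) in CD-HFD CXCR6pos cells, 559 ± 146 (n = 6) in ND CXCR6pos, 610 ± 67.0 (n = 4) in ND CXCR6neg and 652 ± 44.5 (n = 6) in CD-HFD CXCR6neg. It was lower in CD-HFD CXCR6pos cells than in CXCR6neg cells (-0.85 ± 0.12, adjusted p 5.6e-08) and than under ND (-0.71 ± 0.12, 4.8e-06). Its diet by CXCR6 interaction was called (-0.82 ± 0.17, adjusted p 0.0020). Stat3 (1.04 ± 0.17, adjusted p 6.6e-07) and Irf2, a repressor that competes with Irf1 (0.69 ± 0.16, 0.0011), rose with CD-HFD in CXCR6pos cells.

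Of 9 tested feedback genes, which include the members Isg15 and Usp18, 3 were higher, Isg15 among them, and 1 lower with CD-HFD in CXCR6pos cells (all genes, 4.84% higher and 6.45% lower). Ptpn11, encoding the phosphatase SHP-2, rose by 1.33 ± 0.25 (adjusted p 2.6e-05), and Ptpn6, encoding SHP-1, fell by 0.84 on the log2 scale with an SE of 0.15 (1.5e-05). Socs3, an inhibitor of cytokine receptor kinases, was higher in both liver populations than in spleen under both diets, by 1.77 ± 0.17 (adjusted p 2.2e-14) for CXCR6neg cells under CD-HFD.

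Other interferon-stimulated genes outside the 39 were called in both directions. Of 36 tested, 4 were higher and 4 lower in CXCR6pos than CXCR6neg cells under CD-HFD (all genes, 4.76% and 6.38%), and 3 were higher and 5 lower with CD-HFD in CXCR6pos cells (all genes, 4.84% and 6.45%). Epsti1 fell with CD-HFD in CXCR6pos cells from 437 ± 34.9 CPM (n = 6) to 215 ± 37.2 (n = 5), by -1.07 ± 0.14 (adjusted p 4.8e-10). Ly6e, a surface protein of the Ly6 family, fell from 1534 ± 275 to 992 ± 120 CPM, by -0.67 ± 0.10 (adjusted p 1.7e-07). Their diet by CXCR6 interactions were called too (-0.76 ± 0.19 and -0.64 ± 0.14, adjusted p 0.011 and 0.0048). Ube2l6, the enzyme that conjugates Isg15, rose with Isg15 in CXCR6pos cells under CD-HFD (1.48 ± 0.35, adjusted p 0.00091). Bst2, which is also one of the plasmacytoid dendritic cell markers, was lower in CXCR6pos than CXCR6neg cells under CD-HFD (-1.50 ± 0.24, adjusted p 2.8e-05).

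Genes of MHC class I and its peptide supply are known to be induced by interferon-gamma. Of 18 tested, 4 were higher and 0 lower in CXCR6pos than CXCR6neg cells under CD-HFD (all genes, 4.76% higher and 6.38% lower), and 3 were higher and 0 lower with CD-HFD in CXCR6pos cells (all genes, 4.84% and 6.45%). Tap2 of the peptide transporter was higher by 0.56 ± 0.14 (adjusted p 0.0014) and 0.49 ± 0.13 (0.0060) in those comparisons, and Tap1 by 0.46 ± 0.15 (0.035) and 0.57 ± 0.15 (0.0048). Against spleen, 10 were higher and 0 lower in CD-HFD CXCR6pos cells (all genes, 12.5% higher and 13.3% lower), and 9 higher and 1 lower in ND CXCR6pos cells (7.43% and 6.98%). B2m, the light chain of class I, was higher there by 0.45 ± 0.09 (adjusted p 2.2e-05) and 0.38 ± 0.09 (0.00087). Each of these lists was chosen with earlier results of these data known.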

How the data were processed

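RNA 3′ ends of the sorted cells were sequenced with barcoded oligo-dT primers carrying unique molecular identifiers, per the labels' protocols. The authors deposited raw counts for each gene symbol and used GRCm38.p6 and DESeq2 1.14.1 per the submitters' processing notes; sources used here do not give the aligner, annotation, use of strand or collapsing of identifiers. Of 35 samples, 34 columns matched by name, 1 column matched none and was unused, and CD-HFD CXCR6pos replicate 6 was not analysed here. Identical values in all 22865 genes stood in the columns of ND CXCR6neg replicate 1 and of ND spleen replicate 6, so both were left out, which left 32 libraries. filterByExpr (minimum count 10) kept 6174 genes. Groups were compared in 1 fit of 6 groups with TMM and the quasi-likelihood test of edgeR 4.0.16 (R 4.3.3), adjusted by Benjamini-Hochberg; SE is the log2 fold change over the root of its F. The procedure was tested on simulated data. Levels are TMM-scaled CPM. Floors cover counting error only. Alternatives were DESeq2 1.42.0, its size factors, no filter, a replicate block, fits of the groups compared, and leaving out or adding libraries. Named members are those called in any test and the 4 most abundant; other lists give up to 4 genes a comparison. Gene coordinates are from GENCODE M21. The members and lists were chosen with earlier results of these data known.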

Additional observations from a re-analysis of the deposited data

Results flagged for a closer look

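In 90 sets of values (14 members and the summed level of the 39 genes, by group), 6 had a highest or lowest library set apart from the others by more than Dixon's limit at the 95% level; chance gives about 1 in 20. Gbp7 was at 0 CPM in ND CXCR6pos replicate 1, with the next library at 104 CPM. In the same shallow library Sp100 was at 148 CPM, next to 426, and the 39 genes summed to 2117 CPM, next to 2893. Isg15 was at 70.7 CPM in CD-HFD CXCR6pos replicate 5, the other shallow library, next to 105. Sp100 was at 620.0 CPM in CD-HFD spleen replicate 3, next to 592. The 39 genes summed to 3152 CPM in ND spleen replicate 3, next to 2916.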

How the results depend on the processing

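Counts of members called were recomputed under 11 settings and with each of the 32 libraries left out; no value reversed its direction where it was called. With 1 library left out, the counts ran from 3 to 6 (CXCR6pos against CXCR6neg, CD-HFD), 0 (ND), 4 to 6 (diet, CXCR6pos), 0 to 2 (diet, CXCR6neg), 0 to 1 (diet, spleen), 2 to 4 and 1 to 2 (CXCR6neg against spleen, CD-HFD and ND), 4 to 6 and 2 to 3 (CXCR6pos against spleen), 0 (both interactions) and 8 to 14 (any difference). The diet count in CXCR6neg cells was 0 without the 2 libraries whose Cxcr6 went against their label and 2 with the identical library kept in both groups. The diet count in spleen was 1 with no filter, with DESeq2 and with the block. CXCR6neg against spleen gave 1 under CD-HFD with no filter, and 2 under ND without the shallow libraries and ND CXCR6pos replicate 6. CXCR6pos against spleen under ND gave 1 in that setting and 1 with the block. The cause was not tested. Replicate numbers pair nothing in the labels: deviations of same-numbered libraries correlated by -0.062 to 0.084. With the replicate block, the diet count in CXCR6pos cells was 2 (Ifi47, Isg15, Rtp4 and Samhd1 lost; 418 genes in all against 697), with fewer genes and libraries fitted. The block also ended the calls of Samhd1 against CXCR6neg cells (adjusted p 0.14), Gbp7 against spleen (0.086), both under CD-HFD, and Irf7 of ND CXCR6pos cells against spleen (0.068). Under settings other than leaving out 1 library, counts over all genes moved by over 1.5 times in CXCR6pos against CXCR6neg under ND (0 to 90 against 2), the diet comparisons of CXCR6neg cells (9 to 55 against 29) and spleen (0 to 12 against 2), CXCR6neg against spleen under ND (209 and 245 against 424, identical library kept in both or in liver), CXCR6pos against spleen under ND (575 against 890, block), the diet by organ interaction (0 to 8 against 0) and the diet by CXCR6 interaction (53 against 89, without the 2 libraries above).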
